A study of Mus musculus with 46 samples.

Results

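The first day of reprogramming was followed in 8 of the 46 samples of the series, the 4 samples taken at D1 and the 4 taken at D0. Each day held 2 samples of mouse embryonic fibroblasts carrying Nanog+Oct4 and 2 carrying NanogN70+Oct4. The members were chosen by day and combination alone, and no measured value entered the choice. The fibroblasts were OG2 MEF, prepared from E13.5 embryos of OG2 males, which carry an Oct4-GFP reporter, and 129 females. Both groups received Oct4 (gene symbol Pou5f1) from a pMXs retrovirus made in Plat-E packaging cells. One group also received native Nanog, called NanogWT in the study. The other received NanogN70, called NanogBiD in the study, in which an N-terminal piece of SS18 that binds the remodelling ATPase BRG1 is joined to Nanog by a short linker. D0 is the end of the infection, and D1 is the next day, after serum-containing medium had been replaced by the reprogramming medium iCD3. No uninfected MEF were kept in iCD3 for a day, so the medium, the longer time with the factors and the passing of time cannot be told apart in any value below. All cells of a culture were sequenced together, infected or not, and fewer cells of a type and less RNA per cell cannot be told apart either.

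Fibroblasts in culture carry a contractile actin cytoskeleton that is kept up by serum. Serum lipids and adhesion to a stiff surface drive 2 linked transcription systems, serum response factor with its actin-sensing partners MRTF, and the co-activators YAP and TAZ on TEAD proteins. TGF-beta and BMP ligands, also present in serum, act through Smad proteins, and the Id genes are the classical BMP targets. Loss of these mesenchymal programmes is known as an early step of reprogramming, whereas the endogenous pluripotency network is switched on late. Cells moved to a medium low in lipid switch on cholesterol and fatty acid synthesis through SREBP factors, and viral nucleic acid can switch on interferon-stimulated genes.

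Expression was given by the authors as FPKM, which counts fragments per length of exon model and per mapped total of the library. Differences are on the log2(FPKM + 1) scale, D1 minus D0, so that 1 is a doubling for well expressed genes and less than the true change for low ones. A gene was called when its limma p, adjusted over all genes by the Benjamini-Hochberg method, was under 0.05 and its log2 difference at least 1 in size. Wherever 4 values are given for a day, they are those of Nanog+Oct4 replicates 1 and 2 followed by NanogN70+Oct4 replicates 1 and 2. The labels do not say whether replicates came from separate cultures, and p-values then measure only the spread between these samples.

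The 8 libraries summed to between 399399 and 462190 FPKM, and their relative depth was 0.924 to 1.09 of the median library. Depth was read from the most common ratio between a reference library and each library, over genes under 1 FPKM in both. The highest total belonged to Nanog+Oct4 replicate 1 of D0, and this library stood apart. It correlated with the other 3 D0 libraries at r = 0.936 to 0.950 across genes, against 0.967 to 0.982 among those 3, and 890 genes lay at least 2-fold from their mean. Across genes, its deviations went with short transcripts (Spearman rho -0.55 for length) and GC-rich ones (0.51). For the shared first-day change itself the same rho values were 0.024 and 0.078 over 12056 genes. Where a list's count of calls in 1 direction moved by 1.5 times or more without this library, both counts are given.

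Of 12587 genes tested, 1187 were called (9.43%), 677 of them higher at D1 (5.38%) and 510 lower (4.05%). These shares are to be set beside the list counts below, and a few calls in a short list are near them. The first principal component held 57.3% of the variance and separated all D1 from all D0 libraries. In 1074 of the 1187 called genes the days did not overlap, and all 1187 moved in the same direction in both combinations. Both counts follow in part from the call, which was made on the change over both combinations. Among all tested genes, 19.4% had every D1 sample above every D0 sample and 10.2% every D1 sample below. The change was large, at least 4-fold on the scale used, for 191 called genes. The median over all tested genes was 0.14, so most genes read slightly higher at D1. Quantile normalization, which removes such a shift, left a median of 0.01 and called 531 genes higher and 635 lower, and scaling by the median of ratios gave 546 and 630. Without the library that stood apart, 804 genes were called higher and 528 lower.

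**Figure D1:**
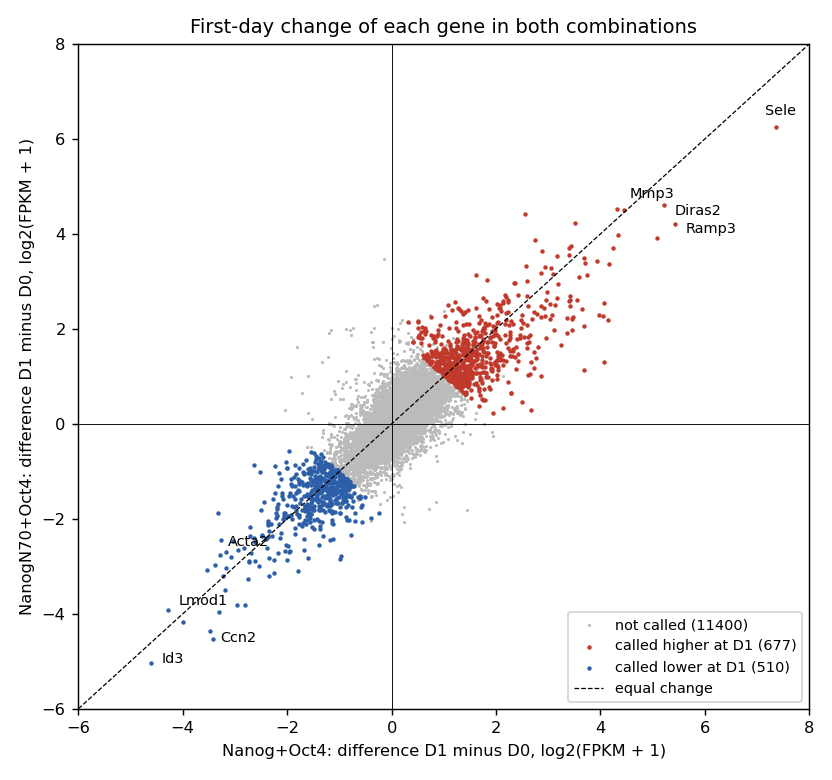
Each point is 1 of the 12587 tested genes, with its log2(FPKM + 1) difference D1 minus D0 with Nanog+Oct4 on the x axis and with NanogN70+Oct4 on the y axis. Red points are the 677 genes called higher at D1 over both combinations, blue points the 510 called lower and grey points the rest. All coloured points lie where both combinations moved alike, which reflects in part the choice of genes by their change over both.

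Both transduced factors rose further over the first day. Pou5f1 (chromosome 17, 35506032 to 35510777 in mm10) was at 3200.3, 1690.5, 2154 and 2039.7 FPKM at D0 and 6036, 5218, 8147 and 5037 at D1. Every D1 value lay above every D0 value (log2 difference 1.44, SE 0.27, adjusted p = 0.00341), while both MEF libraries averaged 0.136 FPKM. Nanog (chromosome 6, 122707489 to 122714633) went from 497, 450.3, 684 and 644 to 1299, 1363, 1544 and 1347 FPKM, again without overlap (log2 difference 1.3, SE 0.16, adjusted p = 0.000349). Ss18 (chromosome 18, 14625629 to 14684419), whose 5′ part is in the fusion, was at 30.5, 26, 66.1 and 57.4 FPKM at D0 and 40.9, 35.9, 148 and 92.4 at D1. The NanogN70+Oct4 samples were the higher ones on both days, and the shared change stayed under the fold limit (log2 difference 0.67, SE 0.18, adjusted p = 0.0197). Transcripts of the vectors and of the endogenous genes are not separated in FPKM.

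The largest rise of any protein-coding gene was that of Sele (chromosome 1, 164039614 to 164058487), which encodes E-selectin, an adhesion receptor for leukocytes best known from activated endothelium. It was at 0.432, 0.14, 0.257 and 0 FPKM at D0 and 302, 144, 115 and 62.5 at D1, with every D1 sample far above every D0 sample (log2 difference 6.81, SE 0.31, adjusted p = 2.28e-06). Markers of endothelial cells were low on both days. Pecam1 was listed at 0 to 0.225 FPKM and Cdh5 at 0 to 0.199 in the 8 libraries, and 2 of 8 endothelial markers passed the filter on low values, of which Kdr fell (log2 difference -1.93, SE 0.17, adjusted p = 6.79e-05) and none rose. At D3, Sele averaged 50.2 FPKM, and mES listed it at 0.

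Mmp3 (chromosome 9, 7445822 to 7455975), a stromelysin that cleaves matrix proteins, went from 1.88, 2.14, 0.82 and 0.613 FPKM to 66.2, 64.1, 33.7 and 42.1 (log2 difference 4.48, SE 0.12, adjusted p = 2.23e-07). The groups were far apart, and the Nanog+Oct4 samples were the higher ones on each day. The promoters of Sele and Mmp3 from RefSeq (build GRCm38.p6, which is mm10) are shown here because both are among the 12 largest rises and hold an AP-1 motif close to the start. The stretches run from 20 bases before the match to the base before the annotated start, and capitals mark the AP-1 motif TGANTCA. For Sele the annotated start used lies within the gene coordinates given above and not at their lower end. They are chr1:164048141-164048233, plus strand, for Sele and chr9:7445756-7445821, plus strand, for Mmp3.
Sele: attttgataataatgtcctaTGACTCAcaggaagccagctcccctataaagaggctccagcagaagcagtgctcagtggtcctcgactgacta
Mmp3: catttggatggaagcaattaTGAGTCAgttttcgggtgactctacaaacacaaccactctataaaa
The motif lay 73 and 46 bases before the start. It was sought on both strands in windows of 250 bases before to 50 after the start, which RefSeq gave for 9458 of the tested genes in 12018 promoters. It was present in 7.35% of promoters of genes called higher, in 8.84% of those called lower and in 5.0% of all, and was thus no more frequent in rising than in falling genes. Also sought in the same way, by name, were the octamer bound by Oct4, the sterol regulatory element bound by the SREBP factors and the kappaB motif. The octamer was in 2.67% of promoters of genes called higher, 1.89% of those called lower and 1.31% of all. The sterol element was in 6 of 599, 5 of 475 and 136 of 12018, and the kappaB motif, bound by NF-kB, in 60, 58 and 1240 of the same promoters. Of the AP-1 subunit genes themselves, Jun and Fosl1 rose and Fosl2 fell, with log2 differences of 1.22, 1.06 and -1.47.

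Other genes among the 12 largest rises were as follows. Tac1, the precursor of the neuropeptide substance P, went from 0.315, 0.169, 0.328 and 0.408 FPKM to 71.2, 23.2, 26.7 and 14.2 (log2 difference 4.49, SE 0.37, adjusted p = 4.16e-05). Ramp3, which pairs with the calcitonin receptor-like receptor, went from 3.2, 0.277, 1.89 and 1.07 to 128, 76.6, 61.2 and 32.3 (log2 difference 4.82, SE 0.41, adjusted p = 4.96e-05). For both genes the highest D1 value was that of Nanog+Oct4 replicate 1 and the lowest that of NanogN70+Oct4 replicate 2, with no overlap between days. Vgf, a nerve growth factor-induced neuropeptide precursor, stood at 3.88, 1.86, 0.232 and 0.298 FPKM at D0 and 83, 59.2, 19.7 and 12.1 at D1 (log2 difference 3.98, SE 0.23, adjusted p = 8.07e-06). Its Nanog+Oct4 samples were above the NanogN70+Oct4 samples on each day, and the rise was seen in both. Diras2, a small Ras-like GTPase, reached 41.1 ± 13.2 FPKM (SD, n = 4) from 0.363 ± 0.216 (log2 difference 4.91, SE 0.21, adjusted p = 1.69e-06), and Dgkk, a diacylglycerol kinase on the X chromosome, 23.7 ± 6.04 from 0.366 ± 0.186 (log2 difference 4.16, SE 0.16, adjusted p = 1.03e-06).

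Angptl4, an inhibitor of lipoprotein lipase, was already expressed at D0, at 15.4, 8.78, 10.6 and 8.83 FPKM, and reached 185, 203, 117 and 111 (log2 difference 3.69, SE 0.19, adjusted p = 3.25e-06). It was one of 9 tested glucocorticoid targets and the only 1 of them called, a count near the 9.43% called over all tested genes. Serpina3n, a secreted protease inhibitor of the acute-phase response, went from 3.31, 1.12, 8.997 and 3.85 to 71.5, 49.1, 198 and 128 FPKM (log2 difference 4.42, SE 0.29, adjusted p = 1.51e-05). It was higher with NanogN70+Oct4 at D1 and averaged 1436 FPKM at D3. It belongs to a family of similar neighbouring genes, and how reads were shared among them is not known. Icos, a costimulatory receptor of T cells, went from 0.581, 0.368, 1.46 and 0.755 to 20.9, 11.7, 42.5 and 34.3 FPKM (log2 difference 3.87, SE 0.23, adjusted p = 8.09e-06), and both MEF libraries listed it at 0. Sox3, a SoxB1 transcription factor of neural progenitors, went from 0, 0.0613, 0.0298 and 0.178 to 23.9, 12.6, 16 and 6.61 (log2 difference 3.76, SE 0.29, adjusted p = 3.4e-05). It passed every D0 value in every D1 sample and averaged 20.7 FPKM at D3, against 7.4 in the single mES library. The last of the 12, Kera, encodes keratocan, a small leucine-rich proteoglycan (log2 difference 3.59, SE 0.15, adjusted p = 1.58e-06).

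**Figure D2:**
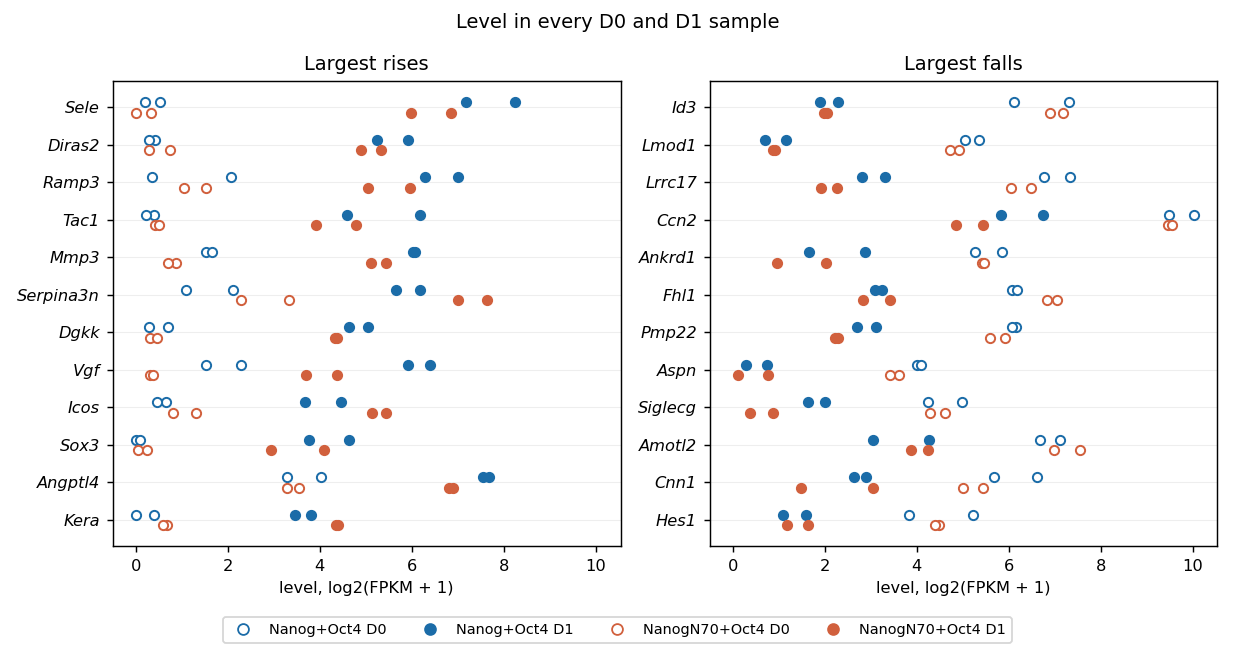
Levels of the 12 protein-coding genes with the largest rise (left) and the 12 with the largest fall (right) are plotted on the x axis as log2(FPKM + 1), with 1 circle per sample. Open circles are D0 and filled circles D1, blue for Nanog+Oct4 and orange for NanogN70+Oct4, and only called genes whose days did not overlap could enter the plot, so the gap between open and filled circles reflects the choice of genes.

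The largest fall was that of Id3 (chromosome 4, 136143822 to 136145392), which encodes an inhibitor of basic helix-loop-helix factors and is a direct BMP target. It was at 157, 68.5, 119 and 145 FPKM at D0 and 2.75, 3.9, 3.11 and 2.95 at D1 (log2 difference -4.82, SE 0.24, adjusted p = 3.25e-06). The D1 samples were close to each other and far below the lowest D0 sample. Hes1, a repressor downstream of Notch, went from 36.3, 13.2, 21.5 and 20.2 to 1.13, 2.03, 1.27 and 2.09 FPKM (log2 difference -3.11, SE 0.28, adjusted p = 6.06e-05). Lrrc17 (log2 difference -4.08, SE 0.19, adjusted p = 2.28e-06), Aspn, an extracellular proteoglycan that binds TGF-beta (log2 difference -3.31, SE 0.19, adjusted p = 7.91e-06), and Pmp22, a membrane protein known from myelin (log2 difference -3.35, SE 0.14, adjusted p = 1.69e-06), were also among the 12. Fhl1, a LIM-domain protein of muscle, went from 65.8, 71.8, 113 and 131 to 7.55, 8.45, 6.15 and 9.73 FPKM and was higher with NanogN70+Oct4 at D0. Siglecg, a sialic acid receptor of B cells, fell by 3.31 on the log2 scale from 22.7 ± 5.95 FPKM at D0. Of the 150 genes chosen for naming, 43 overlap another annotated gene. They include Sele, Ramp3, Lrrc17, Ccn2, Fhl1 and Aspn, and among the genes below Tm7sf2, Lss, Srf, Ifit1, Stat2, Timp3, Txnip and Adm. Since strand use in the counting is not stated, the values of all 43 are uncertain to that extent.

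Actin and smooth muscle contractile genes fell as a body. Of 20 listed genes all were tested, 19 were called lower and none higher, with a median log2 difference of -1.96 against 0.14 over all tested genes. The counts were the same without the library that stood apart. Acta2 (chromosome 19, 34240336 to 34255585), smooth muscle alpha-actin and a marker of myofibroblasts, was at 1224, 951, 624 and 587 FPKM at D0 and 86.4, 138, 56.9 and 136 at D1 (log2 difference -3.03, SE 0.28, adjusted p = 7.31e-05). Nanog+Oct4 had the higher values at D0, and the days did not overlap in either combination.

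Myl9, the regulatory light chain of smooth muscle myosin, went from 780.0, 293, 377 and 281 to 40.4, 68, 33.6 and 72.1 FPKM (log2 difference -2.93, SE 0.35, adjusted p = 0.000286). Csrp1, a LIM protein bound to actin filaments, went from 606, 355, 328 and 292 to 49.5, 58.8, 41.1 and 46.3 (log2 difference -2.94, SE 0.18, adjusted p = 9.76e-06). In both genes Nanog+Oct4 replicate 1, the library that stood apart, was the highest at D0. Lmod1, which nucleates actin filaments in smooth muscle, went from 39.9, 32.3, 25.3 and 29.5 to 0.632, 1.22, 0.828 and 0.902 FPKM, below its MEF mean of 19.4. Cnn1 (calponin) and Actg2 (smooth muscle gamma-actin) fell too, by 3.17 and 2.42 on the log2 scale. The other called members, Cnn2, Vcl, Tagln, Actn1, Cald1, Tpm1, Mylk, Tpm2, Actg1, Actb, Flna, Myh11 and Myh9, had log2 differences from -2.21 to -1.05. They included the cytoplasmic actins Actb (-1.47) and Actg1 (-1.56). The actin genes are near-identical in their coding parts, and how reads were shared among them is not known. Tpm4 alone stayed under the fold limit (log2 difference -0.85, SE 0.15, adjusted p = 0.00246).

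The promoters of Myl9 and Vcl (vinculin, which links adhesions to actin) are shown for the CArG box, the element bound by serum response factor, in capitals. They are chr2:156775283-156775463, plus strand, and chr14:20929151-20929397, plus strand, again from 20 bases before the match to the base before the start.
Myl9: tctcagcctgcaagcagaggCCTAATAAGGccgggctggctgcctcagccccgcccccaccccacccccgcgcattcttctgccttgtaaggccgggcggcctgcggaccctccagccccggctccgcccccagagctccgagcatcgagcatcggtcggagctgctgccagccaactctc
Vcl: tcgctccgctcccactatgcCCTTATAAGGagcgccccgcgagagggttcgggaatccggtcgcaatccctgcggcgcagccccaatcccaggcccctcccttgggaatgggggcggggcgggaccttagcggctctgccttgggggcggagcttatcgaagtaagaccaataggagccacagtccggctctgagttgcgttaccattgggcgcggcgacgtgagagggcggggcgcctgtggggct
The box, sought on both strands, starts 161 bases before the start of Myl9 and 227 before that of Vcl. It was present in 5.47% of 475 promoters of genes called lower, in 0.835% of 599 promoters of genes called higher and in 1.45% of all. Of 18 promoters of listed contractile genes, 4 held it (22.2%). The list was made of a programme known to depend on serum response factor, so its share describes the list and not the first-day change. Its called members with a promoter also enter the 5.47%. Srf, the factor itself, went from 22.8, 20.01, 19 and 20.2 to 5.95, 6.71, 11 and 8.55 FPKM (log2 difference -1.28, SE 0.17, adjusted p = 0.000466), lower in every D1 sample. Whether Srf had a part in the fall of these genes was not tested.

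Targets of YAP and TEAD showed the same direction. The authors' values covered 14 listed genes, of which 13 were tested, 7 were called lower and none higher, with a median of -1.03. Ccn2 (chromosome 10, 24595442 to 24598683), connective tissue growth factor, was at 1049, 715, 699.8 and 746 FPKM at D0 and 56.1, 106, 28 and 42.2 at D1 (log2 difference -3.91, SE 0.27, adjusted p = 1.69e-05). Ccn1 (chromosome 3, 145646971 to 145649985), a secreted matrix protein of the same family, went from 298, 239, 257 and 309 to 33.6, 46.2, 36.1 and 38.2 (log2 difference -2.81, SE 0.15, adjusted p = 4.49e-06). The 4 samples of each day were close for Ccn1, and for Ccn2 the NanogN70+Oct4 samples were the lowest at D1.

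Ankrd1, a nuclear and sarcomeric ankyrin protein, went from 57.2, 37.7, 41.9 and 43 to 2.14, 6.35, 0.941 and 3.05 FPKM (log2 difference -3.63, SE 0.32, adjusted p = 5.58e-05), and Amotl2, a junctional protein that itself restrains YAP, from 102, 138, 126 and 186 to 7.33, 18.2, 13.6 and 18 (log2 difference -3.23, SE 0.26, adjusted p = 3.65e-05). F3 (tissue factor), Ajuba and Tead1 had log2 differences of -1.64, -1.34 and -1.03. Axl, Lats2, Arhgef17, Crim1, Ptpn14 and Amotl1 were not called, with -0.95 to 0.49. The stretches before the starts of Ccn1 (chr3:145649986-145650108, minus strand) and Ankrd1 (chr19:36119845-36120074, minus strand) are shown with the TEAD motif CATTCC, or its reverse complement, in capitals.
Ccn1: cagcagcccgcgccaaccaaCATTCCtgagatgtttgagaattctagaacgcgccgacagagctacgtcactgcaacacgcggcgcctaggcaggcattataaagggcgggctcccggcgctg
Ankrd1: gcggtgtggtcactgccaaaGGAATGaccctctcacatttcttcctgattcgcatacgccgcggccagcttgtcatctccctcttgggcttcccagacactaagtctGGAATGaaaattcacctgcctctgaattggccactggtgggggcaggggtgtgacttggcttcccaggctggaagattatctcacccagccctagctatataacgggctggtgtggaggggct
Ccn1 held 1 match, 103 bases before the start, and Ankrd1 held 2, at 210 and 123. Of 11 promoters of the listed genes 8 held the motif (72.7%), against 12.2% of all promoters, 15.6% of those of genes called lower and 11.7% of those called higher. The list was made of known targets, so its share describes the list and not the first-day change. The motif is short, and a match is a description of the letters only.

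Most BMP targets and modulators fell. Of 11 listed genes, all tested, 8 were called lower and 1 higher, with a median of -1.59, and the 1 call higher was lost without the library that stood apart. Beside Id3, the other Id genes fell, Id4 from 13.3, 12.1, 13.3 and 15.1 to 1.18, 0.982, 1.89 and 1.97 FPKM (log2 difference -2.54, SE 0.13, adjusted p = 3.75e-06), Id1 by 2.21 and Id2 by 1.59 on the log2 scale. The inhibitory Smad6 fell by 1.59, Smad9 by 1.5 and the ligand Bmp4 by 1.17.

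A pair of secreted BMP antagonists went opposite ways. Nog was at 4.18, 4.71, 6.34 and 10.8 FPKM at D0 and 0.07003, 0.0678, 0 and 0.0298 at D1 (log2 difference -2.77, SE 0.21, adjusted p = 3.29e-05), nearly absent in all 4 D1 samples and at 0.539 in MEF. Grem1 had a log2 difference of 1.19 (SE 0.24, adjusted p = 0.00556), from 37.1, 53.6, 42.3 and 45.8 FPKM to 117, 177, 61 and 85.2. Without the library that stood apart Grem1 was not called, and 8 genes of the list were again called lower.

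Among 18 ligands, receptors and targets of TGF-beta, 6 were called lower and none higher (median -0.78), or 8 without the library that stood apart. The ligand Tgfb3 went from 52.4, 46.6, 39.9 and 39.98 to 7.38, 9.71, 5.94 and 7.47 FPKM (log2 difference -2.41, SE 0.13, adjusted p = 5.05e-06). Tgfb2 and the activin subunit Inhba fell by 1.22 and 1.43, and the feedback genes Smad7 and Pmepa1 by 1.1 and 1.05. Tgfb1 and the receptor genes Tgfbr1, Tgfbr2 and Tgfbr3 were not called, with log2 differences of 0.72, -0.74, 0.56 and 0.42.

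**Figure D3:**
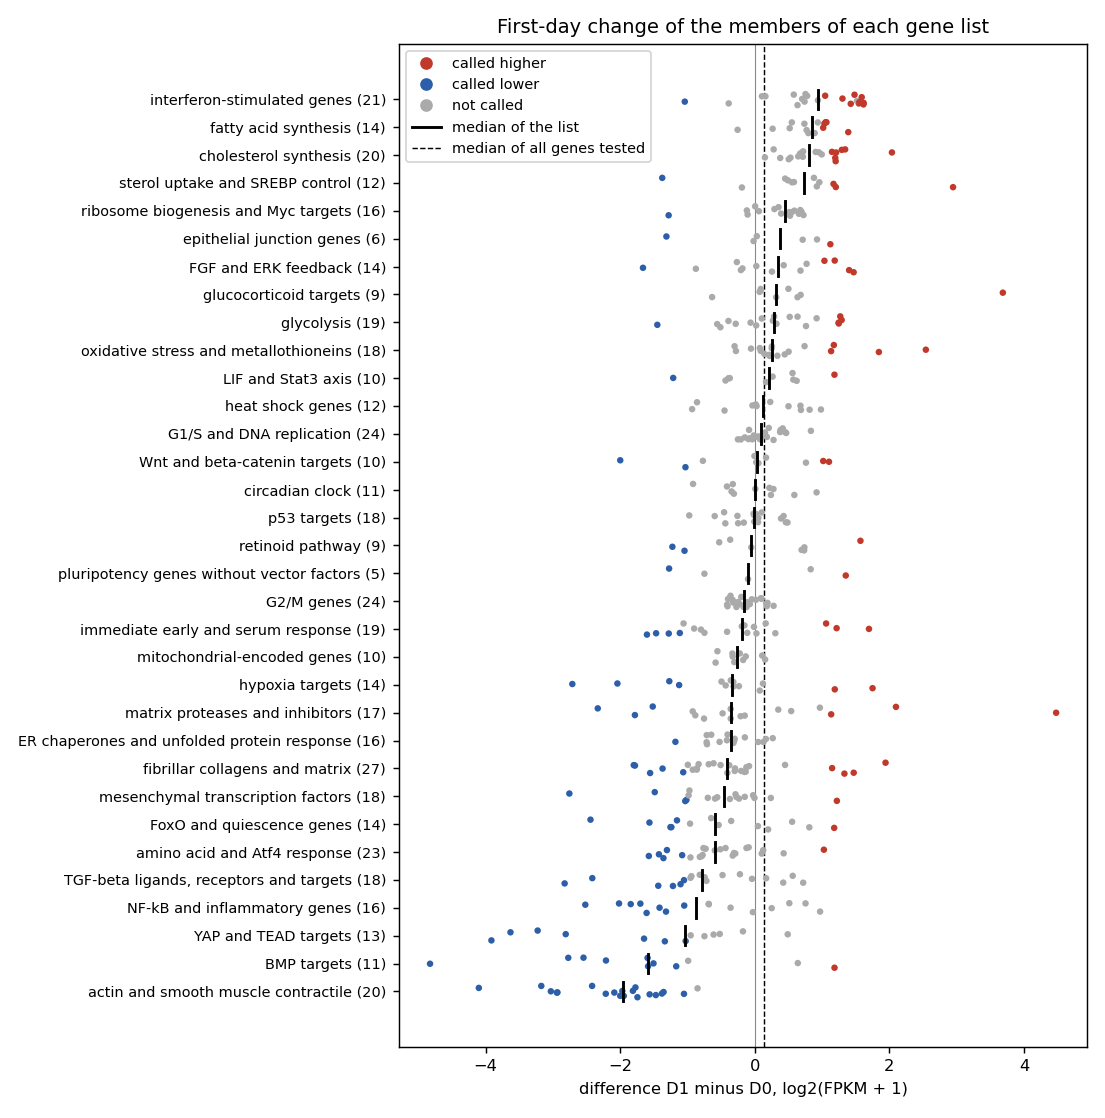
Each row is a gene list with its number of tested members in brackets, and each point a member at its log2(FPKM + 1) difference D1 minus D0 on the x axis, red where called higher, blue where called lower and grey where not called. Black bars are list medians, from -1.96 for contractile genes to 0.94 for interferon-stimulated genes, and the dashed line is the median of all tested genes at 0.14.

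Part of the lipid synthesis genes rose. All 20 listed cholesterol synthesis genes had positive log2 differences (median 0.81), as had 7897 of all 12587 tested genes. Of the 20, 7 were called higher and none lower, and without the library that stood apart 9 were called. Tm7sf2, a sterol reductase, changed most, from 10.7, 6.29, 10.1 and 10.4 to 42.7, 44.1, 39.1 and 37.8 FPKM (log2 difference 2.04, SE 0.17, adjusted p = 4.64e-05). Lss, lanosterol synthase, went from 11.6, 11, 10.3 and 8.53 to 26, 30.5, 27.4 and 26.8 (log2 difference 1.34, SE 0.12, adjusted p = 7.1e-05). Both were tightly grouped at D1 and well above D0.

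Hsd17b7, Mvd, Dhcr7 and Nsdhl also rose, with 1.21, 1.2, 1.2 and 1.15. Pmvk was called (log2 difference 1.29, SE 0.37, adjusted p = 0.0258), but the days overlapped, since Nanog+Oct4 replicate 1 of D0 stood at 18.3 FPKM against 3.64 to 6.82 in the other D0 samples. Sqle and Hmgcs1 were not called, with 0.53 and 0.15. Of 12 genes of sterol uptake and SREBP control, 3 were called higher and 1 lower (median 0.73), and 5 were called higher without the library that stood apart. Abca1, the cholesterol exporter and an LXR target, went from 0.911, 2.61, 3.38 and 3.86 to 35.8, 20.3, 34.4 and 17.6 FPKM (log2 difference 2.95, SE 0.31, adjusted p = 0.000156). Mylip, a ubiquitin ligase and likewise an LXR target, fell (log2 difference -1.37, SE 0.19, adjusted p = 0.000607), and Lpin1, a phosphatidate phosphatase, rose by 1.2.

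Of 14 fatty acid synthesis genes 5 were called higher and none lower (median 0.84). The stearoyl-CoA desaturase Scd2 went from 223, 280.4, 266 and 265 to 625, 720.0, 667 and 699.9 FPKM (log2 difference 1.39, SE 0.14, adjusted p = 0.00013), and Scd1, Fasn, Acly and Elovl5 had log2 differences of 1.02 to 1.07, just past the fold limit. The count depended on the scaling, with 3 calls after quantile normalization and 1 with the median of ratios. The sterol regulatory element, sought as 1 pattern, was in 1 of 18 promoters of the cholesterol synthesis list, which covered 15 of its genes. It was in 0 of 11 of the sterol uptake and SREBP control list and in 0 of 15 of the fatty acid synthesis list. A promoter without a match may hold a variant of the element or one outside the window, so these counts do not show that the element is absent.

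Part of the interferon-stimulated genes rose. Of 30 listed genes 21 were tested, 9 were called higher and 1 lower, and the median was 0.94. Irf7, the factor that amplifies the interferon response, went from 2.51, 0.884, 0.605 and 0.634 to 6.75, 4.05, 8.13 and 3.32 FPKM (log2 difference 1.62, SE 0.30, adjusted p = 0.00313). Ifit1, which binds viral RNA, went from 1.95, 0.72, 2.01 and 0.93 to 6.73, 5.29, 8.32 and 3.72 (log2 difference 1.55, SE 0.26, adjusted p = 0.00207). Stat2, the transducer of type I interferon signals, went from 4.63, 7.13, 4.65 and 6.47 to 15.4, 18.9, 21.5 and 15 (log2 difference 1.48, SE 0.18, adjusted p = 0.00032). In each of the 3 genes the days did not overlap, although Nanog+Oct4 replicate 1 was the highest D0 value of Irf7.

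Rsad2 (viperin), Cmpk2, Rtp4, Irf9, Usp18 and Bst2 were called as well, with 1.05 for Usp18 to 1.61 for Rtp4. Bst2 (tetherin) spread widely, from 49.7, 7.98, 35.3 and 20.6 to 82.9, 59.5, 106 and 52.7 FPKM (log2 difference 1.59, SE 0.47, adjusted p = 0.0304). Isg15 missed the threshold (log2 difference 1.52, SE 0.59, adjusted p = 0.077), with 10.6, 0.335, 2.04 and 1.95 FPKM at D0 and 11.3, 10.7, 13.4 and 3.49 at D1, where the library that stood apart held the highest D0 value. Ifit2 was the 1 called lower (log2 difference -1.04, SE 0.17, adjusted p = 0.00153). The stretches before the starts of Ifit1 (chr19:34640765-34640888, plus strand) and Rsad2 (chr12:26456453-26456592, minus strand) are shown with the core of the interferon-stimulated response element, 2 copies of GAAA with any 2 bases between them, or its reverse complement, in capitals.
Ifit1: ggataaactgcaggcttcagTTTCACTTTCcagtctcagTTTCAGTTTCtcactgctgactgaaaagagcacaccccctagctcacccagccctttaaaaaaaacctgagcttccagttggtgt
Rsad2: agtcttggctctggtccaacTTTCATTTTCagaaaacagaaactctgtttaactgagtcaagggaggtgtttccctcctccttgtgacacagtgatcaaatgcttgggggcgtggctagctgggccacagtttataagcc
Ifit1 held 2 matches, 104 and 85 bases before the start, and Rsad2 held 1, at 120. The element was in 11 of 21 promoters of the listed genes (52.4%), in 4.01% of promoters of genes called higher, 2.74% of those called lower and 2.93% of all. The list was made of genes known to respond to interferon, so its share describes the list and not the first-day change.

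Chemokines and other NF-kB targets gave calls in the other direction. Of 16 tested genes 8 were called lower and none higher (median -0.87), and without the library that stood apart 7 were lower and 1 higher. Cxcl5, a neutrophil chemokine, went from 25.2, 18, 24.3 and 21.8 to 2.6, 2.56, 3.62 and 3.5 FPKM (log2 difference -2.52, SE 0.14, adjusted p = 6.15e-06). Ccl2, the monocyte chemokine, went from 48.3, 15.5, 27.1 and 22 to 6.93, 9.14, 5.004 and 8.75 (log2 difference -1.7, SE 0.31, adjusted p = 0.00302). Csf1, Vcam1, Cxcl12, Ccl7, Ptgs2 and Nfkbia fell by 2.02, 1.84, 1.61, 1.42, 1.32 and 1.05. Icam1 and Relb were not called, with 0.97 and 0.75.

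Macrophage markers were also listed. Of 10 listed markers 5 were tested and 4 were called lower, or 2 without the library that stood apart, and the summed level of all 10 was 52.6 to 163 FPKM at D0 and 9.74 to 38.0 at D1. Lyz2 (lysozyme) went from 121, 41, 77.7 and 42.1 to 24.8, 6.23, 12.9 and 5.43 FPKM (log2 difference -2.51, SE 0.46, adjusted p = 0.00332), and Csf1r, the receptor of Csf1, from 2.63, 1.17, 2.66 and 1.8 to 0.368, 0.208, 0.284 and 0.274 (log2 difference -1.23, SE 0.19, adjusted p = 0.0012). The defining markers Ptprc and Adgre1 were at 0.549 to 0.874 and 0.523 to 1.69 FPKM at D0 and at 0.146 to 0.412 and 0.0700 to 0.882 at D1. The part of such cells in the fall of the chemokines or in the interferon-stimulated genes was not tested.

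The matrix changed in both directions. Of 27 tested collagens and matrix genes, 4 were called higher and 5 lower (median -0.41). The small proteoglycans lumican and decorin rose, Lum from 15.2, 15.9, 10.9 and 6.32 to 113, 104, 17.9 and 22.3 FPKM (log2 difference 1.94, SE 0.30, adjusted p = 0.00128) and Dcn from 28.7, 21.4, 33.7 and 28.6 to 126, 125, 45.8 and 52.8 (log2 difference 1.47, SE 0.30, adjusted p = 0.00546). In both, the 2 Nanog+Oct4 samples of D1 were far above the 2 NanogN70+Oct4 samples, and the change was 2.72 and 1.17 in the combinations for Lum and 2.3 and 0.644 for Dcn. That difference was not called for either (adjusted p = 0.479 and 0.303 by limma).

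Thbs1 (thrombospondin), a highly expressed gene, went from 1978, 2643, 2352 and 2817 to 717, 1076, 475 and 644 FPKM (log2 difference -1.8, SE 0.25, adjusted p = 0.000664). Lox, which cross-links collagen, fell by 1.78, the elastic-fibre protein Fbln5 by 1.56 and Col12a1 by 1.37. The major fibrillar collagens Col1a1, Col1a2 and Col3a1 were not called, with -0.51, -0.99 and -0.38. Among 17 proteases and inhibitors, 3 were called higher (Mmp3, Mmp10 and Ctsl) and 3 lower (Adamts5, Timp3 and Adamts1). Timp3, an inhibitor of metalloproteases, went from 172, 215, 169 and 145 to 49.7, 57.3, 47.1 and 45.9 FPKM (log2 difference -1.78, SE 0.13, adjusted p = 2.52e-05), and Mmp10, a neighbour of Mmp3 in the same gene cluster, from 0.195, 0, 0.0355 and 0.0354 to 3.07, 7.22, 1.57 and 4.002 (log2 difference 2.1, SE 0.28, adjusted p = 0.000535).

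Growth factor signalling genes were split. Of 14 genes of FGF and ERK feedback, 4 were called higher and 1 lower (median 0.34), beside 5.38% higher and 4.05% lower over all tested genes. The ETS factors Etv4 and Etv5 rose, Etv4 from 16.7, 9.93, 13.3 and 10.4 to 37.7, 32.1, 39.2 and 28.9 FPKM (log2 difference 1.4, SE 0.18, adjusted p = 0.000447) and Etv5 by 1.19, as did the inhibitors Spred3 (1.47) and Spry4 (1.03). Spry1 fell (log2 difference -1.66, SE 0.19, adjusted p = 0.00022), and Dusp6 and Spry2 were not called (0.02 and -0.18). Of 19 immediate early genes 3 were called higher (Egr1, Jun and Fosl1) and 4 lower (Dusp1, Fosl2, Srf and Atf3). Egr1 spread widely, with 48.4, 12.5, 38.2 and 11.1 FPKM at D0 and 71.4, 50.3, 133 and 69.4 at D1 (log2 difference 1.7, SE 0.48, adjusted p = 0.0246), while Fos had -0.11 and Myc -0.8, both not called.

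Wnt targets had 2 calls each way among 10 tested, beside 5.38% higher and 4.05% lower over all tested genes. Axin2, the direct feedback target, rose by 1.1 from 0.391 ± 0.326 FPKM, and Sfrp1, a Wnt inhibitor, by 1.02, but neither was called after quantile normalization, while Sfrp2 and Ccn4 fell by 2.00 and 1.03. Of 10 genes of the LIF and Stat3 axis, Socs3 rose (log2 difference 1.18, SE 0.21, adjusted p = 0.00255) and Pim1 fell (log2 difference -1.21, SE 0.18, adjusted p = 0.000909). A single call each way in 10 genes is near the shares over all tested genes. The retinoid list gave 1 higher and 2 lower of 9, with Aldh1a3 at 1.57, Aldh1a1 at -1.22 and Cyp26b1, which degrades retinoic acid, at -1.04.

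Metal, nutrient and oxygen responses moved in part of their genes. Of 18 oxidative stress and metal genes, 4 were called higher and none lower, beside 5.38% higher and 4.05% lower over all tested genes. The metallothioneins, which bind zinc and copper, led them, with Mt2 at 25, 7.97, 29 and 17.2 FPKM at D0 and 168, 103, 92.9 and 88.2 at D1 (log2 difference 2.54, SE 0.37, adjusted p = 0.000842) and Mt1 at 49.9, 23.6, 60.2 and 50.5 and 192, 148, 125 and 179 (log2 difference 1.84, SE 0.27, adjusted p = 0.000872). Srxn1 and the zinc importer Slc39a10 rose by 1.17 and 1.13, while Hmox1, Gclc and Gclm were not called. Of 23 genes of the amino acid response under Atf4, 5 were called lower and 1 higher (median -0.59). Trib3, Chac1, Mthfd2, Pck2 and Slc7a5 fell by 1.08 to 1.57, and Aldh1l2 rose by 1.03.

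Hypoxia targets were called higher in 2 and lower in 4 of 14, beside 5.38% higher and 4.05% lower over all tested genes. Adm (adrenomedullin) went from 30.2, 30.1, 18.5 and 29 to 2.92, 4.86, 2.88 and 2.45 FPKM (log2 difference -2.71, SE 0.18, adjusted p = 1.42e-05), and the collagen prolyl hydroxylases P4ha2 and P4ha1 fell by 2.04 and 1.27, whereas Ankrd37 and Ndrg1 rose by 1.75 and 1.19. Of 19 glycolysis genes 4 were called higher (Hk2, Ldhb, Slc16a1 and Eno2, 1.25 to 1.29) and the lactate exporter Slc16a3 lower (-1.45). Among 14 FoxO and quiescence genes 5 were called lower, with Txnip, a brake on glucose uptake, from 34.3, 28.7, 32.5 and 33.5 to 5.62, 6.82, 3.49 and 4.996 FPKM (log2 difference -2.44, SE 0.16, adjusted p = 1.61e-05), and Bcl6 rose by 1.18. Herpud1 was the only 1 of 16 unfolded protein response genes called (-1.18), and by limma none of 12 heat shock genes was (1 higher without the library that stood apart), with Bag3 at 0.98 and Hspb1 at -0.93 the extremes. Both counts are near the 9.43% called over all tested genes.

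Proliferation genes gave no calls. By limma none of 24 genes of G1/S and DNA replication, 24 of G2/M and 18 p53 targets was called, with medians of 0.09, -0.15 and -0.01. Over all tested genes 9.43% were called, so lists of this size would hold few calls in any case. The largest log2 difference of a G2/M gene in size was that of Hmmr (-0.41, adjusted p = 0.055). None of 11 clock genes and 10 mitochondrially encoded genes was called either, and of 16 ribosome biogenesis and Myc-related genes the only call was Mycl, which fell by 1.28. Under other settings 1 or 2 p53 targets or clock genes passed the fold limit, but none of the cell cycle genes did in the 7 settings tried for the lists.

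Cell identity was described by lists of pluripotency, epithelial, mesenchymal and other marker genes. Of 28 pluripotency genes other than the vector factors, 5 passed the filter on low values. Klf5 rose from 7.58, 6.26, 5.73 and 3.02 to 22.6, 24, 11 and 9.06 FPKM (log2 difference 1.35, SE 0.19, adjusted p = 0.000818) and Klf4 fell from 27, 13, 8.69 and 5.08 to 3.1, 5.27, 4.75 and 3.6 (log2 difference -1.27, SE 0.34, adjusted p = 0.0188), a call that was lost without the library that stood apart. Sox2 was at 0.0513 to 0.383 FPKM at D0 and 0.186 to 1.25 at D1, Esrrb at no more than 0.0782 and Zfp42 at no more than 0.0442, and all 8 libraries listed Sall4 at 0. Cdh1 and Epcam, the epithelial adhesion genes, stayed under 1 FPKM. Of 19 listed epithelial junction genes 6 were tested, of which Krt18 rose (1.12) and Krt19 fell (-1.31), beside 5.38% higher and 4.05% lower over all tested genes. After quantile normalization the rise of Krt18 was not called.

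Of 18 tested mesenchymal transcription factors, 4 were called lower and 1 higher (median -0.46). Prrx2 went from 31.3, 13.3, 12.5 and 11.2 to 1.65, 1.59, 1.33 and 1.29 FPKM (log2 difference -2.75, SE 0.24, adjusted p = 5.54e-05), and its limb-mesenchyme relative Prrx1 fell by 1.49. Twist1 rose from 31.9, 15.1, 17.6 and 13.9 to 59.1, 46.5, 44.2 and 32.5 (log2 difference 1.22, SE 0.22, adjusted p = 0.00304), while Snai1, Snai2, Zeb1 and Zeb2 were not called. Of 10 fibroblast markers 2 were called lower, Prrx1 and the PDGF receptor gene Pdgfrb (log2 difference -2.09, SE 0.15, adjusted p = 2.1e-05), and none higher, or 3 lower without the library that stood apart. The median over the 10 was -0.60, with 8 negative, against 4690 negative of all 12587 tested genes. The mean log2(FPKM + 1) level of the 10 was 6.50 to 6.68 at D0 and 5.83 to 6.24 at D1. Their summed level went the other way, at 5561 to 6134 FPKM at D0 and 8282 to 10227 at D1. Vim, the most abundant of them at D1, had a positive difference but stayed under the fold limit (log2 difference 0.99, SE 0.21, adjusted p = 0.00621).

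Of 10 listed neural and glial markers 4 were tested and 3 were called higher, with Tubb3 at 1.12. With quantile normalization and with the median of ratios 2 were called. Nefm and Nefl, the middle and light neurofilament genes, which lie side by side on chromosome 14, went from 23.9, 13.5, 0.972 and 0.911 to 126, 73.7, 19.6 and 10.3 FPKM (log2 difference 2.67, SE 0.27, adjusted p = 0.000121) and from 18.9, 12.8, 1.35 and 0.794 to 76.9, 39.4, 17.3 and 8.11 (log2 difference 2.21, SE 0.31, adjusted p = 0.000693). The Nanog+Oct4 samples of both genes were above the NanogN70+Oct4 samples on each day, and their D0 range reached the D1 range of NanogN70+Oct4. Sox10, a defining glial marker, was at no more than 0.249 FPKM in the 8 libraries. Markers of erythroid cells were near 0 throughout, with a summed level of at most 2.48 FPKM.

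The lists were also set beside MEF, D3 and mES. The mean level of the contractile genes, on the log2(FPKM + 1) scale, was 7.49 and 8.06 in the 2 MEF libraries, 7.65 to 8.17 at D0, 5.46 to 5.98 at D1, 4.54 to 4.94 at D3 and 3.38 in mES. That of the BMP list was 3.52 and 3.74 in MEF, 3.56 to 3.90 at D0, 2.08 to 2.26 at D1, 2.18 to 2.42 at D3 and 1.89 in mES. The D0 values of both lists thus lay near those of MEF, and the BMP list was no lower at D3 than at D1.

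The interferon-stimulated genes were at 1.11 and 1.52 in MEF, 1.45 to 2.19 at D0, 2.2 to 2.84 at D1 and 3.61 to 4.68 at D3, and at 1.25 in mES. Cholesterol synthesis genes were at 4.95 and 5.17 in MEF, 4.65 to 5.12 at D0, 5.56 to 5.83 at D1 and 5.73 to 6.00 at D3, and at 4.89 in mES. Of the leading single genes, Mmp3 was lower at D3 (mean 12.9 FPKM) than in any D1 sample, whereas Ramp3 and Tac1 averaged 112 and 87.8. These levels carry no test.

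**Figure D4:**
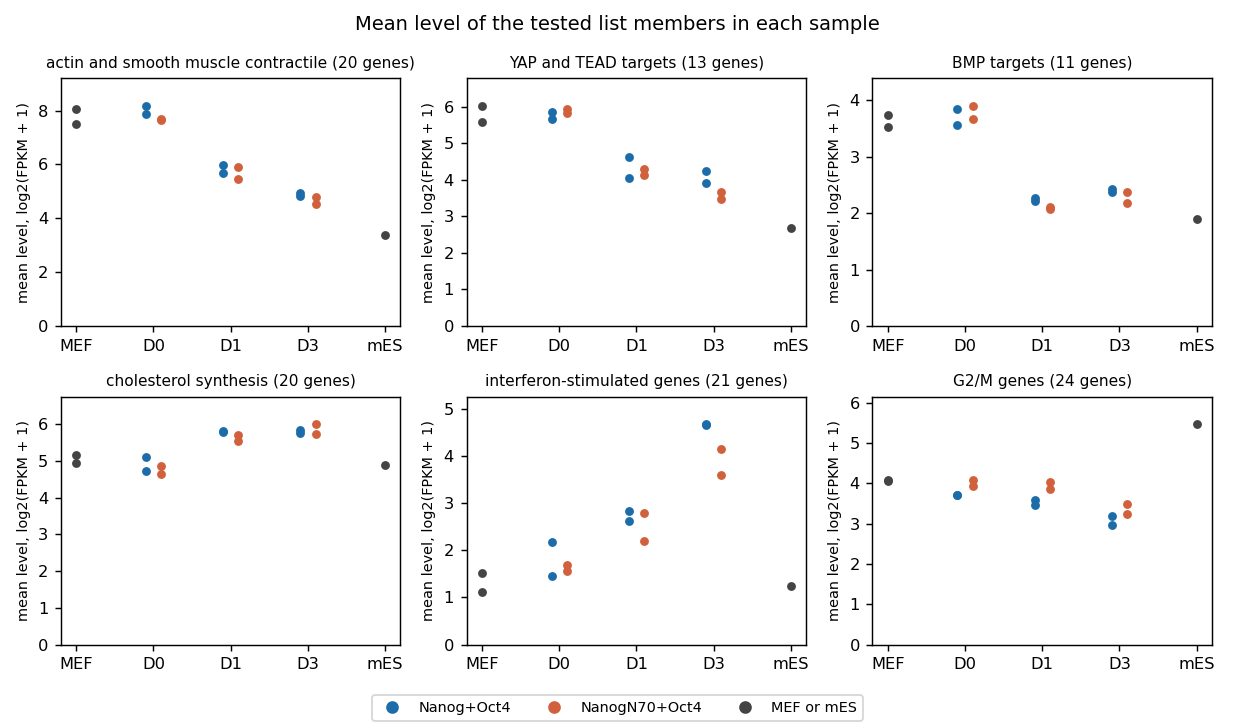
The y axis of each panel is the mean log2(FPKM + 1) level of the tested members of 1 list, with 1 point per sample, and the x axis gives MEF (2 samples), D0, D1, D3 (4 samples each) and mES (1 sample). Contractile genes, YAP and TEAD targets and BMP targets step down between D0 and D1, cholesterol synthesis and interferon-stimulated genes step up, and the G2/M genes overlap between the days.

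Whether the fusion altered the first-day response was asked with the difference between the combinations' changes. Fitted within each combination, 1098 genes (8.72%) were called with Nanog+Oct4, 662 higher and 436 lower, and 1302 (10.3%) with NanogN70+Oct4, 734 higher and 568 lower. Single libraries bore on these counts. Without replicate 1 of D1 the first was 508, and the second was 474 without replicate 1 of D1, 763 without replicate 1 of D0 and 536 without replicate 2 of D0. Across the 12587 genes the changes in the 2 combinations, which share no samples, had a Pearson r of 0.787, a description across genes that are not independent replicates. No gene was called for the difference by limma, where 824 had an unadjusted p under 0.05. A fit of all time-course samples, which estimates the spread from more libraries, called 40 genes (8 higher and 32 lower with NanogN70+Oct4). Leaving out Nanog+Oct4 replicate 2 of D0 left the library that stood apart as the only D0 sample of that combination. A difference in that fit cannot be told apart from that library's own deviations. With 2 samples per group these data leave room for differences in single genes, such as the lower rise of Lum and Dcn given above, that did not pass the test.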

How the data were processed

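RNA-seq reads were trimmed by the authors with Trim Galore 0.6.4, mapped to mm10 with HISAT2 2.2.1 and quantified with StringTie 2.2.1, and deposited by the authors as FPKM per gene (37108 genes, 34 samples, replicates kept apart). The annotation and strand use are not given in the sources used here, and labels and methods name different library kits. GFOLD, the authors' tool for differences, needs reads and was not used.

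Values were analysed as log2(FPKM + 1), with a pseudocount of 1. Genes at 1 FPKM or more in at least 4 of the 8 samples were tested. After removal of 279 rows that repeated a gene under a second symbol, 12587 remained. limma 3.58.1 (R 4.3.3, eBayes with trend and two-sided tests) fitted day with combination as a block, and separately a mean per combination and day for the changes within combinations and their difference. Tests ran over all genes with Benjamini-Hochberg adjustment, and fits were tested on simulated data. FPKM carry no counts, so no count model, interval or detection floor was used and only relative depth is known.

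Replicate numbers are shared by the groups, and deviations of replicate 1 correlated between groups at r = 0.138 to 0.339 in all 6 pairs, so a replicate block was an alternative. The others were the pseudocount, the filter, scaling (TPM, quantile, median of ratios), the fold limit, the samples in the fit, the combination block, the trend, GC and length, protein-coding genes alone, and leaving out each library. Chosen after seeing the data were keeping repeated rows and recounting the lists under other scalings, the replicate block, a pseudocount of 0.1 and without Nanog+Oct4 replicate 1 of D0. Named genes were the 12 largest called protein-coding changes each way without overlap of days, up to 6 called members per list by size, and the vector factors. Other members are named where a count needs them, chosen after their values were seen, and a few members that enter the counts are not reported here by name. Members and lists were chosen with earlier results of these data known. Promoters came from RefSeq (GRCm38.p6), and Python 3.11.15, pandas 2.3.3 and scipy 1.17.1 were used.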

Additional observations from a re-analysis of the deposited data

Results flagged for a closer look

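Among the 24 leading genes, the vector factors and the total FPKM, each taken over the 4 samples of D0 and of D1, 1 of 56 groups held a sample whose gap to its nearest neighbour exceeded Dixon's limit for 4 samples. Chance gives about 1 in 20. It was Ccn2 at D0, where Nanog+Oct4 replicate 1 was highest at 1049 FPKM, with a gap of 0.867 of the range, against 699.8 to 746.5 in the other 3 samples. All 4 D1 values of Ccn2 were at no more than 106 FPKM, rounded to whole numbers, so the fall did not rest on that sample.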

How the results depend on the processing

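With the replicate number as a block, 1210 genes were called for the shared change, 1196 with Nanog+Oct4, 1450 with NanogN70+Oct4 and 0 for the difference between combinations, and all 1187, 1098 and 1302 genes called without the block were among them. Without a fold limit the first 3 counts were 3912, 1725 and 2433. For the shared change the other 20 alternatives stayed within 1.5 times the count of 1187, from 1104 to 1332 when 1 library was left out. For Nanog+Oct4 the range with 1 library left out was 508 to 1556, and for NanogN70+Oct4 474 to 1484. The difference between combinations, 0 in the main fit, gave 1 gene without a filter, 1 with a mean of at least 1 FPKM, 40 in the fit of all time-course samples and 0 to 83 with 1 library left out. A fit without 1 library takes the lone sample of its group to vary like the other groups. The cause of these shifts was not tested. Of 150 named genes, 117 kept direction and call in every alternative run for single genes (all but the fold limit), and no direction reversed in them. In the other 33, 108 values lost the call, out of 3150 over the 150 genes, most often for Fcer1g, C1qb and Tubb3. Quantile scaling and the median of ratios lost 9 named calls each, and dropping 1 library 5 to 14. With quantile normalization and with the median of ratios, lower calls among the matrix proteases and inhibitors went from 3 to 5, and the rise of Aldh1l2 was no longer called.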
